A study of Mus musculus with 2 samples.

Results

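Il17a, Trdc, Trdv4, Cd163l1, Tmem176a and Tmem176b are 6 genes of gamma-delta T17 cells. They were chosen as listed names, with earlier results of these data known, and are 6 of the 17683 genes listed in either of 2 single-cell libraries of mouse retina. All 6 are listed in the Igfbpl1 library and 2 of them, Tmem176a and Tmem176b, in the PBS library, so Il17a, Trdc, Trdv4 and Cd163l1 have no value there. Among the 15579 genes that the PBS file lists, 94 had UMIs (unique molecular identifiers, which count transcripts) in fewer than 3 cells and 821 in exactly 3. A gene missing from it is treated as not measured, not as 0.

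Gamma-delta T cells carry a receptor built from a gamma and a delta chain in place of the alpha and beta chains of conventional T cells. One branch of them is set in the thymus to secrete interleukin-17 soon after it senses interleukin-1 and interleukin-23, and settles in barrier tissues and around the brain. Interleukin-17 acts on a receptor made of the Il17ra and Il17rc products and makes tissue cells release chemokines and antimicrobial proteins. Of the members, Il17a encodes the cytokine, Trdc the constant part and Trdv4 one of the variable parts of the delta chain. Cd163l1 encodes a scavenger receptor of gamma-delta T cells, and Tmem176a and Tmem176b are neighbouring genes of ion channel-like membrane proteins of dendritic cells and type 17 lymphocytes.

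Retinas of B6 mice were the source, and flow cytometry kept the cells positive for CD45, a surface protein of blood-derived cells and microglia. Glaucoma had been modelled in every mouse with microbeads, which block the outflow of fluid from the eye. One group received PBS and the other Igfbpl1. Each group was 1 library pooled from 10 mice aged 8 to 10 months, and neither group is healthy retina. The animals were perfused with saline and the tissue was digested for 1 hour at 37 °C. With 1 library per group nothing was tested and a difference is one between libraries. Every interval is an exact 95% interval that covers counting error only. The PBS library held 1055 cells and 3795008 UMIs (median 3433 per cell) and the Igfbpl1 library 3330 cells and 9463631 UMIs (median 2355.5), with 0 cell barcodes shared.

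Cells were placed in classes by the number of distinct marker genes with a UMI, and no member was a marker. T cells numbered 31 in the PBS library and 294 in the Igfbpl1 library, and all 15 T cell markers had UMIs in both. In the Igfbpl1 library 73 of the 294 T cells were called T17-like (24.8%, Clopper-Pearson interval 20 to 30.2%). These carried a UMI of a T cell receptor gamma chain, none of Cd4, Cd8a or Cd8b1, and UMIs of at least 2 of 12 programme genes such as Il23r, Il1r1 and Blk. The other T cells were 67 CD8 cells, 19 CD4 cells, 19 further gamma-chain cells and 116 without any of these UMIs. Only gamma-chain genes with Tcrg names were used, and 7 of the 116 cells had a UMI of Trgv2, a gamma segment outside the gate. Of the 73, 13 lay at the limit of exactly 2 programme genes. The same gate cannot be applied to the PBS library, where 0 of the gate's gamma-chain genes are listed against 7 in the other table. On the programme genes listed in both tables and with no gamma-chain requirement, 2 of 31 PBS T cells passed (6.45%, 0.791 to 21.4%) and 97 of 294 Igfbpl1 T cells (33.0%, 27.6 to 38.7%).

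The T17-like cells carried UMIs of all 15 T cell markers, which include the alpha and beta chain genes Trac, Trbc1 and Trbc2. Trac had 15 UMIs in the 16 T17-like cells without a Trdc UMI and 4 in the 57 with one. Whether those 16 are gamma-delta cells was not tested. Of the 14 NK cell markers 9 were detected in them, summing to 797 CPM (UMIs over all UMIs of the class, scaled to 1000000) against 11351 CPM in NK cells with a Trdc UMI, and Ncr1, Klra4, Klra8, Eomes and Khdc1a were at 0. Of the 14 monocyte or macrophage markers 7 were detected, at 835 CPM in all, and Mrc1, Pf4 and F13a1 were at 0. All these markers took part in setting the classes, so their counts describe the gate. Xist, transcribed from the silenced X, was found without any of 4 Y-linked genes in 47 of the 73 cells, and a Y-linked gene without Xist in 0. Microglia of the same library split into 617 and 444 such cells, and PBS T cells into 3 and 15. The part of sex in any difference between the libraries was not tested.

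Il17a, the cytokine gene, was found almost wholly in the T17-like cells. In the Igfbpl1 library it had 368 UMIs in 48 of 3330 cells, of which 329 UMIs (89.4%) lay in 40 T17-like cells. Its level there was 1783 CPM (1595 to 1986). The gene lies on chromosome 1 at 20730905 to 20734496, plus strand (GENCODE M21, mm10). The 116 T cells without a Cd4, CD8 or gamma-chain UMI of the gate stood at 72.2 CPM (45.7 to 108). CD4 cells stood at 219 CPM (117 to 375), all from 1 cell with 13 UMIs, and the 19 other gamma-chain T cells had 0 UMIs. These values put T17-like cells above every other class of at least 19 cells, with intervals that do not meet. NK, CD8, B, dendritic, migratory dendritic, plasmacytoid dendritic and monocyte or macrophage cells had 0 Il17a UMIs. With 3 cells as the limit of a count of 0, this allows a share with a UMI of up to 1.51% for the 199 NK cells. For the 512 monocytes or macrophages it allows up to 0.586%. The exact intervals reach 1.84% and 0.718%.

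The Il17a message was uneven from cell to cell. Of the 73 T17-like cells 33 had no Il17a UMI, 10 had 1, 11 had 2 to 4 and 19 had 5 or more, and the highest count was 34. The 8 richest cells held 57.8% of the class's Il17a UMIs, against 29.8% for Trdc and 32.0% for Cd163l1. Poisson intervals leave this clumping out, so the interval of the Il17a level is too narrow.

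**Figure D1:**
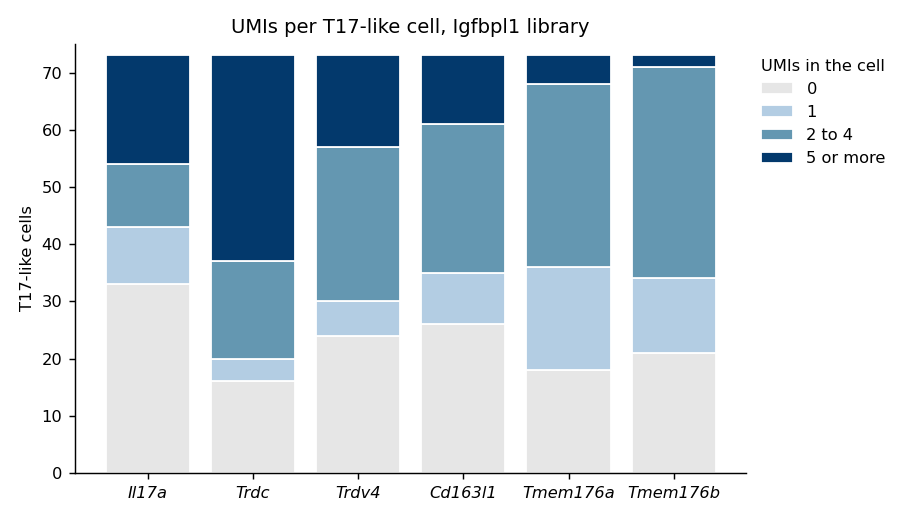
Stacked bars give the number of the 73 T17-like cells of the Igfbpl1 library (vertical axis) by UMIs of each member in the cell (0, 1, 2 to 4, 5 or more). Trdc had 5 or more UMIs in 36 cells, Il17a in 19 and Tmem176b in 2.

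Of the 48 Il17a cells 8 lay outside the T17-like gate. Other T cells made up 5 of them, 1 was the CD4 cell with 13 Il17a UMIs, and 2 were gated as microglia. One of the microglia-gated cells had 8108 UMIs, 7 T cell markers, 7 Trdc UMIs and 6 Trdv4 UMIs, and was called a doublet. One of the other T cells had 12691 UMIs, 9 of Il17a, 17 of Il17f and 0 of Trdc. The CD4 cell had 2 Cd4 UMIs and 0 Trdc UMIs. Of the 8 cells 5 had Il17a UMIs without a Trdc UMI.

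Trdc and Trdv4, the delta chain segments, were also concentrated in the T17-like cells. Trdc had 411 UMIs in 116 cells of the Igfbpl1 library, 326 of them in 57 T17-like cells (79.3% of its UMIs; 1767 CPM, 1580 to 1969). Trdv4 had 250 UMIs in 73 cells, 214 of them in 49 T17-like cells (85.6%; 1160 CPM, 1010 to 1326). The next class for Trdc was the other gamma-chain T cells, at 232 CPM (135 to 371), followed by NK cells at 84.7 CPM (59.9 to 116). For Trdv4 the next was NK cells at 37.9 CPM (22.1 to 60.7), whose interval met that of migratory dendritic cells at 16.0 CPM (5.19 to 37.3), all 5 UMIs of which came from 1 cell. CD8 cells had 1 UMI of each gene in 67 cells, and B cells 0 of both in 71 cells. Both segments sit on chromosome 14, plus strand, Trdv4 at 54074905 to 54075515 and Trdc at 54142851 to 54148868 (mm10), with 67335 bases between them in the germline.

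In the other gamma-chain T cells Trdc was mostly found without Trdv4. In these 19 cells Trdc had UMIs in 8 cells and Trdv4 in 1, against 57 and 49 of the 73 T17-like cells. Of the 57 T17-like cells with Trdc, 46 also had Trdv4 (80.7%), and of the 49 with Trdv4, 46 had Trdc (93.9%).

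Among gamma chain genes, Tcrg-C1, a constant segment, had 140 UMIs in 57 of the 73 T17-like cells and Tcrg-C4 79 UMIs in 40. The variable segment Tcrg-V6, which is typical of gamma-delta cells that make interleukin-17, had 22 of its 23 UMIs in the library in T17-like cells, from 19 cells. Tcrg-V1, Tcrg-V4 and Tcrg-V5 had 8, 3 and 3 UMIs there. Trgv2, a further variable segment, had more there than Tcrg-V6, with 37 of its 61 UMIs, from 24 cells. The other gamma-chain T cells held 8 of its UMIs and the 116 other T cells 7. The Tcrg genes took part in the gate and Tcrg-V6 was also a programme gene, so their concentration in the class is no finding. Some constant segments are near-identical copies, between which reads can be split.

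NK cells, cytotoxic lymphocytes without a rearranged receptor, held delta-locus transcripts but no Il17a or Cd163l1. Trdc had 38 UMIs in 35 of 199 NK cells (17.6%, 12.6 to 23.6%), with at most 2 UMIs in a cell, and 22 of 199 (11.1%) after each cell was thinned to 1000 UMIs. In microglia, which should lack the gene, 4 of 1689 cells (0.237%) had a Trdc UMI at a median depth of 2089 UMIs, against 1976 in NK cells. Per 100 Trdc UMIs the T17-like cells held 101 UMIs of Il17a and 46.0 of Cd163l1, and NK cells 0 of each. Trdv2-2, a different delta variable segment, had 30 of its 33 UMIs in 29 NK cells and 0 in T17-like cells. Trdj1, a joining segment, had 11 of its 17 UMIs in NK cells. Trdc and Trdv4 were mostly in different NK cells, with 2 cells holding both, 33 Trdc alone and 12 Trdv4 alone.

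The 35 NK cells with Trdc carried UMIs of all 14 NK cell markers. Ncr1, an activating receptor of NK cells, stood at 353 CPM in them and 396 CPM in the 164 others, and Gzma, a granzyme, at 2892 and 3224 CPM. Cd3e, part of the T cell receptor complex, had 1 UMI in these 35 cells and 86 in the 57 T17-like cells with Trdc. Tcrg-C1 had 0 and 124 UMIs. Ncr1, Gzma and the other NK cell markers set the NK class, and Cd3e is a T cell marker. A gamma-chain UMI, such as one of Tcrg-C1, was required of T17-like cells. These values thus follow in part from the gate and are no finding on what the cells are.

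**Figure D2:**
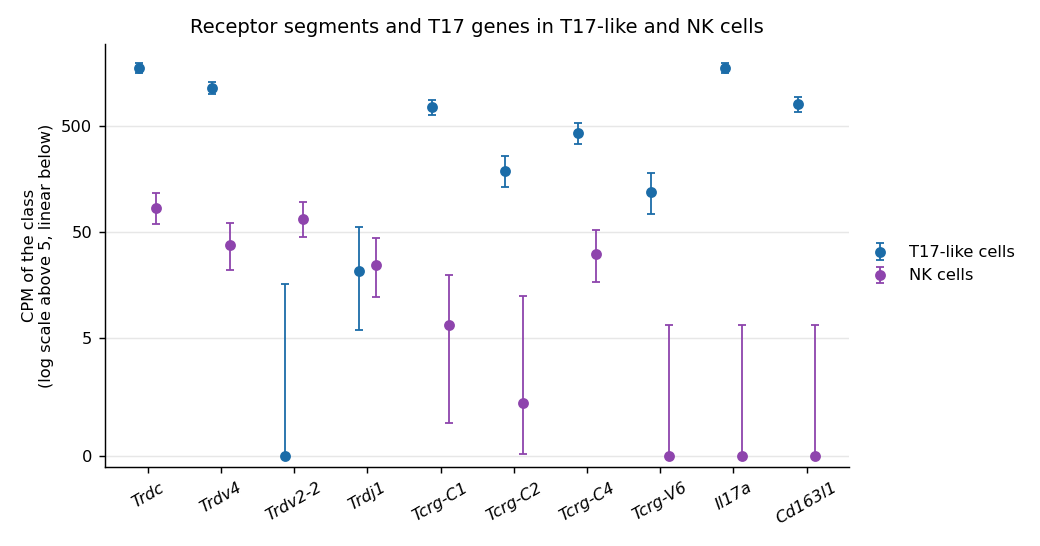
Points give CPM of the class (vertical axis, log scale above 5) for receptor segments, Il17a and Cd163l1 in the 73 T17-like cells and 199 NK cells of the Igfbpl1 library, with exact Poisson 95% bars, or for a count of 0 a bar up to 3 UMIs. Trdv2-2 was at 66.9 CPM in NK cells and 0 in T17-like cells, while Il17a and Cd163l1 were at 0 in NK cells.

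Cd163l1 had the largest share of its UMIs in T17-like cells of the 6 members. It had 165 UMIs in 55 cells of the Igfbpl1 library, 150 of them (90.9%) in 47 T17-like cells, at 813 CPM (688 to 954). The T cells without a Cd4, CD8 or gamma-chain UMI of the gate came next, at 28.2 CPM (12.9 to 53.6), from 4 of 116 cells. Their interval met that of the other gamma-chain T cells, at 13.6 CPM (0.345 to 75.9) from 1 UMI. NK, B, CD4 T, dendritic, plasmacytoid dendritic and monocyte or macrophage cells had 0 UMIs. The gene lies on chromosome 7 at 140218267 to 140231145, plus strand. Msr1 and Cd5l, macrophage relatives of its scavenger receptor family, had 0 UMIs in T17-like cells, and Cd5 and Cd6, its lymphocyte relatives, were at 21.7 and 27.1 CPM there against 80.1 and 66.8 CPM in other T cells.

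**Figure D3:**
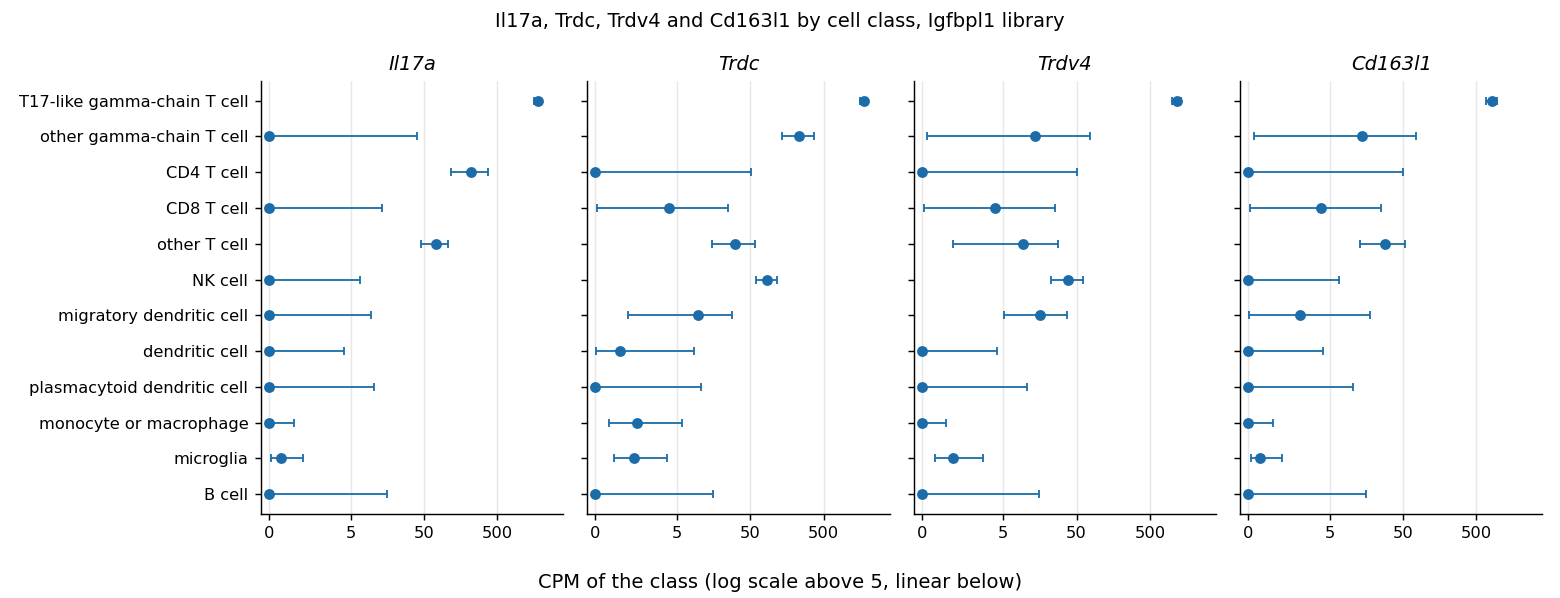
Each panel gives 1 member's CPM of the class (horizontal axis, log scale above 5) in 12 cell classes of the Igfbpl1 library, with exact Poisson 95% bars, or for a count of 0 a bar up to 3 UMIs. All 4 genes peak in the T17-like cells, at 813 to 1783 CPM, and Trdc and Trdv4 also stand above 0 in NK cells.

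A clustering made without the 6 members, on genes listed in both libraries, gave 1 T cell cluster with 65 Igfbpl1 cells and 0 PBS cells. It held 59 of the 73 T17-like cells (80.8%), which made up 90.8% of it. Of all UMIs in the Igfbpl1 library it held 93.2% for Il17a, 80.0% for Trdc, 88.8% for Trdv4 and 98.2% for Cd163l1, but 4.11% for Tmem176a and 3.15% for Tmem176b. A cluster of 1 library can be that library rather than a cell type.

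Tmem176a and Tmem176b overlap on opposite strands of chromosome 6. Tmem176a lies at 48840919 to 48847071 on the plus strand and Tmem176b at 48833818 to 48841496 on the minus strand, sharing 578 bases (mm10). Strand use in the counting was not given in the sources used here, so reads from the shared stretch cannot be told apart. The RefSeq promoter windows listed first for each gene (250 bases before to 50 after the start, GRCm38.p6, chr6:48841233-48841532, plus strand, and chr6:48841088-48841387, minus strand) are shown because they overlap. Capitals mark the 155 bases that both windows hold, each read on its own strand.
Tmem176a: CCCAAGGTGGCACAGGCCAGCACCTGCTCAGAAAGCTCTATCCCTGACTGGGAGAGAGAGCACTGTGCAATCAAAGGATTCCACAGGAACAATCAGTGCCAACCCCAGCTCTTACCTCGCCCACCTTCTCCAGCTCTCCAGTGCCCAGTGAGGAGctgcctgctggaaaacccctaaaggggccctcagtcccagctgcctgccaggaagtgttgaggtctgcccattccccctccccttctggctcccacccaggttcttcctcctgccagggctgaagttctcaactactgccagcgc
Tmem176b: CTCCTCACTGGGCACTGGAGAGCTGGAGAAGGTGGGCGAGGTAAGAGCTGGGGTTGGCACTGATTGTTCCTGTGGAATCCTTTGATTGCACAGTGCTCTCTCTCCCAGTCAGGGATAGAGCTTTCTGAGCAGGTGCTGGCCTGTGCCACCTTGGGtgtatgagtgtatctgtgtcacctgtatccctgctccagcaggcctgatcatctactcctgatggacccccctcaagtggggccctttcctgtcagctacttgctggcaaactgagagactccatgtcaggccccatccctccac
The annotated starts of these windows lie 346 bases apart.

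Tmem176a and Tmem176b were not confined to T17-like cells, and as a label for these 2 genes gamma-delta T17 goes against the data. In the Igfbpl1 library Tmem176a had 3334 UMIs in 1542 cells and Tmem176b 4062 UMIs in 1726 cells. T17-like cells held 3.84% and 3.003% of these UMIs, and microglia 54.0% and 56.6%. By level, migratory dendritic cells, which carry antigen to lymph nodes, stood highest at 1106 CPM for Tmem176a (993 to 1229) and 1068 for Tmem176b (957 to 1189). T17-like cells followed at 694 CPM (579 to 825) and 661 CPM (549 to 789). Microglia were at 428 and 547 CPM, with intervals of 409 to 449 and 525 to 570. Monocytes or macrophages were at 394 CPM (367 to 423) and 487 CPM (457 to 519).

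The order had close neighbours. For Tmem176b the intervals of T17-like cells and microglia met, and for Tmem176a those of microglia and monocytes or macrophages met. Below these stood B cells at 207 and 233 CPM and dendritic cells at 153 and 161 CPM, with intervals that met for both genes. The dendritic cell level was higher under other settings, at 301 CPM for Tmem176a and 367 for Tmem176b with Leiden clusters and at 341 and 273 CPM after thinning to 1000 UMIs. The 116 other T cells were at 72.2 CPM for both genes, CD8 cells at 71.9 and 98.8 CPM, NK cells at 53.5 and 73.6 CPM and retinal neurons at 19.0 and 41.2 CPM. Müller glia or astrocytes, 37 cells, differed between the genes, with 9 UMIs of Tmem176a (106 CPM, 48.3 to 200) and 35 of Tmem176b (411 CPM, 286 to 571).

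Free RNA from microglia was set beside these levels. Per 100 UMIs of the 13 microglia markers, microglia held 3.20 UMIs of Tmem176a and 4.09 of Tmem176b. T17-like cells held 346 and 330, migratory dendritic cells 304 and 293, monocytes or macrophages 37.2 and 46.0, NK cells 36.9 and 50.8 and other T cells 16.1 of each. The part of free microglial RNA in these levels was not tested. Of the migratory dendritic cell markers 6 of 12 had UMIs in T17-like cells, summing to 184 CPM against 7355 CPM in migratory dendritic cells, and Ccl22, Cacnb3, Il4i1, Nudt17, Zmynd15 and Apol7c were at 0.

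Within T17-like cells 55 of 73 had a Tmem176a UMI (75.3%, 63.9 to 84.7%) and 52 a Tmem176b UMI (71.2%, 59.4 to 81.2%), against 11.8% and 10.9% of the 221 other T cells. After thinning to 1000 UMIs the T17-like shares were 46.6% and 58.9%. Among T cells the pair therefore went with the T17-like class, although across the library it did not.

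The members were found together in single cells. Of the 73 T17-like cells 13 had UMIs of all 6 members, 35 of 5 and 7 of none. Of Il17a, Trdc, Trdv4 and Cd163l1, 24 cells had all 4, 26 had 3 and 11 had none. Across the whole Igfbpl1 library 66 cells had UMIs of at least 2 of these 4 genes, and 57 of them (86.4%) were T17-like. Of the 48 Il17a cells 41 had Trdc (85.4%), 36 Trdv4 (75%) and 33 Cd163l1 (68.8%). Conversely 41 of the 116 Trdc cells had Il17a (35.3%).

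T17-like cells with an Il17a UMI held more UMIs of most other members per UMI of the class. Trdc stood at 2190 CPM in the 40 cells with Il17a and 1235 CPM in the 33 without, a ratio of 1.77 (1.40 to 2.27). The ratio was 1.80 for Cd163l1 (1.26 to 2.61), 1.57 for Trdv4 (1.17 to 2.12), 1.63 for Tmem176a (1.11 to 2.42) and 1.11 for Tmem176b (0.763 to 1.62). Il23r, the interleukin-23 receptor gene, had 18 and 4 UMIs (3.58, 1.18 to 14.6), and Il1r1, the interleukin-1 receptor gene, 36 and 11 (2.61, 1.30 to 5.67). Cd3g, a subunit of the receptor complex, was also higher, at 1.65 (1.35 to 2.03). Igf1r, an insulin-like growth factor receptor gene, was lower, with 11 UMIs in cells with Il17a and 21 in those without (0.417, 0.182 to 0.905). Median depth was 2102.5 UMIs with Il17a and 2289 without. Cells were split on 1 member here, so these are descriptions. Of the 33 cells without Il17a, 14 also had no Trdc UMI. Whether cells without Trdc are gamma-delta cells, and their part in these ratios, was not tested.

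Across all 3330 cells of the Igfbpl1 library and 12330 genes found in at least 20 of them, the other 3 and the gamma constant segment Tcrg-C1 were the 4 closest genes to each of Il17a, Trdc, Trdv4 and Cd163l1. Correlations are Pearson's r of log counts per 10000, over cells that share 1 library and differ in depth. Trdv4 and Cd163l1 had r of 0.73, Trdc and Trdv4 0.71, and Il17a and Trdc 0.65. Tcrg-C1 had r of 0.61 to 0.70 with the 4 genes. Cxcr6, a chemokine receptor of tissue T cells, was next for Il17a (0.57), Trdc and Trdv4 (both 0.58). Actn2 took that place for Cd163l1 (0.60). Tmem176a and Tmem176b were closest to each other (0.48), and Tmem176b then to Ctss, Cst3 and Ctsh (0.34, 0.33 and 0.31), genes of lysosomal proteases and their inhibitor. Tmem176a and Il17a had r of 0.095.

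Compared with the 221 other T cells of the Igfbpl1 library, all 6 members were at least 2-fold higher in T17-like cells, where 5.7% of the 5173 genes with 20 or more UMIs were (10 CPM added to both sides). They held ranks 1, 2, 3, 5, 27 and 31 by this ratio. Trdv4 stood at 1160 against 7.42 CPM (156-fold, 66.0 to 486), Trdc at 1767 against 41.5 CPM (42.5-fold, 28.9 to 65.0) and Cd163l1 at 813 against 16.3 CPM (49.8-fold, 27.1 to 102). Il17a was 33.4-fold higher (23.6 to 48.5), Tmem176a 8.66-fold (6.25 to 12.1) and Tmem176b 8.10-fold (5.85 to 11.4). Since the members were chosen from such a pattern these values describe them.

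The T17 programme list, 24 of 30 genes measured, had 16 genes higher and 1 lower, with a median log2 ratio of 2.05 beside 0.02 over all genes tested. Several of these, among them Blk, Il1r1, Actn2, Il23r, Cxcr6 and Maf, took part in the gate, so that their ratio is no finding. Of those that did not, Ltb4r1, a leukotriene receptor gene, stood at 406 against 10.4 CPM (39.1-fold, 18.1 to 101), and Serpinb1a, a protease inhibitor gene, at 320 against 11.9 CPM (26.9-fold, 12.8 to 65.3). Ramp1, part of a neuropeptide receptor, stood at 574 against 68.2 CPM (8.42-fold), and Igf1r, the insulin-like growth factor receptor, at 173 against 17.8 CPM (9.74-fold, 4.88 to 20.8). Zbtb16, a transcription factor of innate-like T cells, was 5.84-fold higher (2.49 to 14.4) and Aqp3, a water and glycerol channel, 7.31-fold. Igf1r, Zbtb16 and Aqp3 were picked out after their values were seen, as were Il17f and Ccr6 here. Il17f, a sister cytokine gene, had 0 UMIs in T17-like cells and 17 in 1 other T cell, which also held 9 UMIs of Il17a, and Il22 had 1 UMI in T17-like cells and 79 in other T cells, 78 of them in 1 cell. Ccr6, a chemokine receptor of many type 17 cells, had 0 UMIs in T17-like cells and 10 in other T cells.

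Genes of receptor signalling were divided. Of 11 measured, Cd3g, Cd247 and Lat were at least 2-fold higher and Cd28, Cd5, Cd27 and the kinase gene Lck lower, where 8.33% of all genes were lower. Cd3g stood at 2384 against 847 CPM (2.81-fold, 2.48 to 3.19), and Cd28, a co-stimulatory receptor gene, at 10.8 against 174 CPM (0.0624, 0.00747 to 0.231). Of 10 interferon gamma and cytotoxic genes 8 were lower and 0 higher, with a median log2 ratio of -1.87. Ifng, the interferon gamma gene, stood at 86.7 against 479 CPM (0.181, 0.102 to 0.298), the chemokine gene Xcl1 at 97.5 against 893 CPM (0.109, 0.0643 to 0.174) and Ccl5 at 948 against 5258 CPM. Of 11 Gimap, Ms4a and neighbouring genes of the Tmem176 pair 5 were lower and 0 higher. The 221 other T cells also held myeloid RNA, Apoe at 4221 against 331 CPM and Lyz2 at 487 against 37.9 CPM, both named after their values were seen. The part of that RNA in the ratios was not tested.

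**Figure D4:**
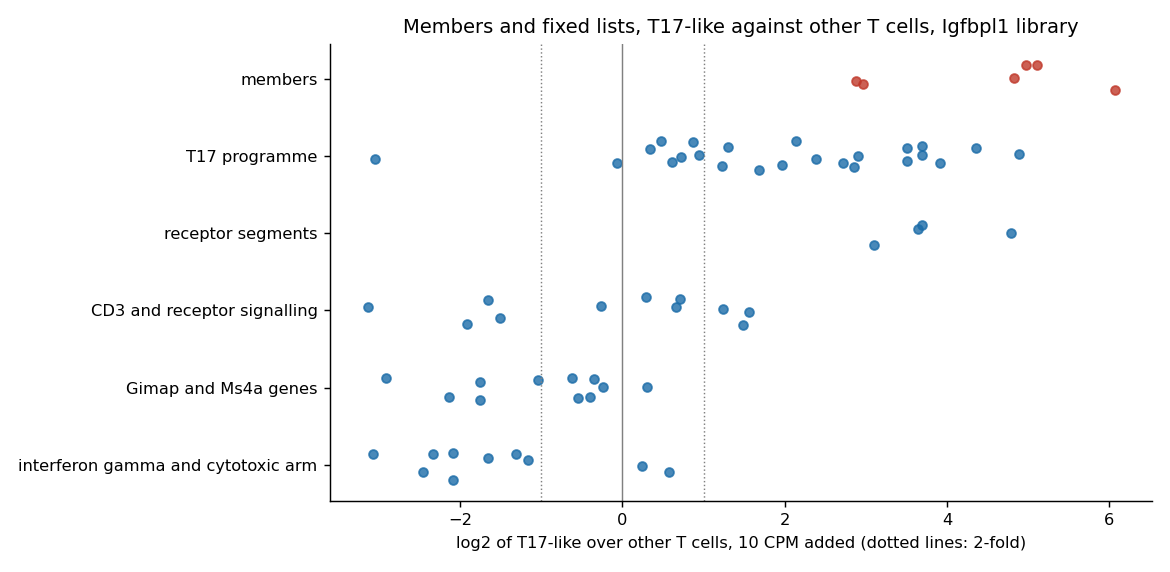
Each point is a gene's log2 ratio of T17-like over other T cells of the Igfbpl1 library with 10 CPM added (horizontal axis), for the members and 5 lists, with vertical scatter for display only. The members lie between 2.87 and 6.07, and 8 of 10 interferon gamma and cytotoxic genes lie left of the dotted line for 2-fold lower.

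Between the libraries only Tmem176a and Tmem176b could be compared, in classes with at least 20 cells in both. In retinal neurons, where 9.22% of 3884 genes were at least 1.5-fold higher, the pair had 0 UMIs in 34 PBS cells and 6 and 13 UMIs in 137 Igfbpl1 cells, too few to be measured. In microglia Tmem176a was at 339 CPM with PBS (319 to 361) and 428 CPM with Igfbpl1 (409 to 449), a ratio of 1.26 (1.17 to 1.36). Tmem176b stood at 497 CPM (472 to 523) and 547 CPM (525 to 570), a ratio of 1.10 (1.03 to 1.18). Both genes were thus slightly higher, by less than the 1.5-fold that 4.08% of 3334 genes passed. The ratios were 1.26 for both genes among cells with Xist and no Y-linked UMI, and 1.17 and 1.06 among cells with the reverse.

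In monocytes or macrophages the pair was lower in the Igfbpl1 library. Tmem176a stood at 585 CPM (484 to 701) in 43 PBS cells and 394 CPM (367 to 423) in 512 Igfbpl1 cells, a ratio of 0.674 (0.554 to 0.825). Tmem176b stood at 800 CPM (681 to 934) and 487 CPM (457 to 519), a ratio of 0.609 (0.514 to 0.724). Tmem176b was past 1.5-fold, as were 39.3% of the 2898 genes on the lower side, so that is no result about this gene. The median log2 ratio of all genes was -0.35, and relative to it Tmem176b was at -0.36 and Tmem176a at -0.21. The class held different cells in each library. In the cluster common to both, with 26 and 301 of these cells, the ratios were 0.791 (0.605 to 1.05) for Tmem176a and 1.02 (0.781 to 1.37) for Tmem176b, so the lower Tmem176b was not seen there. A second cluster, led by Pf4 and Mrc1, held 16 PBS cells and 0 Igfbpl1 cells of the class, with Tmem176b at 1291 CPM. Among cells with a Y-linked UMI and no Xist, 20 and 15 in number, the ratios were 1.02 for Tmem176a (0.611 to 1.66) and 0.926 for Tmem176b (0.554 to 1.51), and among the reverse, 13 and 280 cells, 0.565 (0.407 to 0.806) and 0.500 (0.379 to 0.671). The pair was thus not clearly lower in the first of these sets.

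T cells of the PBS library had 0 UMIs of either gene among 111103 UMIs in 31 cells. This allows a share of cells with a UMI of up to 9.68% with 3 cells as the limit, and up to 11.2% by the exact interval. In the 294 Igfbpl1 T cells the levels were 212 and 206 CPM. They were at least 7.85-fold and 7.64-fold higher if 3 UMIs are taken for PBS, and 25.5% of 2718 genes were past 1.5-fold in that direction. The T17-like cells held 128 of the 182 Tmem176a UMIs and 122 of the 177 Tmem176b UMIs. B cells stood at 9.97 CPM (2 UMIs) and 207 CPM for Tmem176a, a ratio of 20.8 (5.39 to 177), and at 19.9 CPM (4 UMIs) and 233 CPM for Tmem176b, 11.7 (4.26 to 44.7), where 15.5% of 2903 genes were higher. Without called doublets PBS B cells had 1 UMI of each gene, and the ratios were 41.8 (7.08 to 1690) and 45.9 (7.83 to 1855). Monocyte or macrophage markers summed to 583 CPM in PBS B cells (5 of 14 detected) and 6965 CPM in Igfbpl1 B cells (14 of 14), and to 540 and 1741 CPM in T cells (5 and 12 of 14). The part of monocyte RNA in these ratios was not tested. Of 9 T17 programme genes that passed the limit of a mean of 50 CPM in T cells, 8 were higher in the Igfbpl1 library. Maf (0 and 114 CPM), Rora (18.0 and 186), Actn2 (27.0 and 104) and Cd44 (45.0 and 148) passed only through that library. The limit thus favoured higher calls, and this count is no finding. Cxcr6 was higher by 4.73-fold (2.26 to 11.9) and Actn2 by 3.84-fold (1.27 to 19.0), and Il7r was lower, at 0.617 (0.481 to 0.799).

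**Figure D5:**
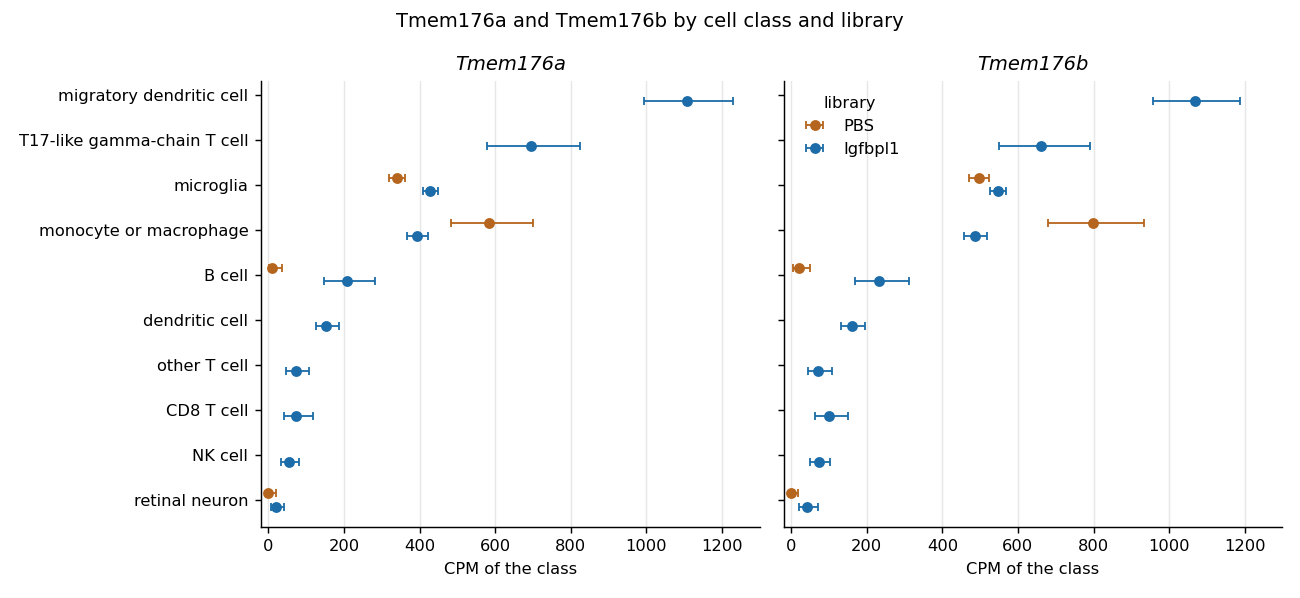
Points give CPM of the class (horizontal axis) for Tmem176a and Tmem176b in classes with at least 20 cells of the library, PBS and Igfbpl1, with exact Poisson 95% bars, or for a count of 0 a bar up to 3 UMIs. Migratory dendritic cells are highest, at 1106 and 1068 CPM, and in B cells the libraries lie apart, at 9.97 and 207 CPM for Tmem176a.

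The signals around the pathway were measured in the same cells. Il1b, the gene of interleukin-1 beta, was highest in monocytes or macrophages, at 2445 CPM with Igfbpl1 and 1020 with PBS, and at 16.3 CPM in T17-like cells. In microglia it stood at 613 and 140 CPM (4.39-fold, 3.96 to 4.88). Il23a, a subunit gene of interleukin-23, has no value in the PBS library and had 8 UMIs in the Igfbpl1 library, 5 of them in microglia. Il17ra, the receptor subunit gene on the receiving side, stood at 61.7 CPM in PBS microglia (53.1 to 71.3) and 36.8 CPM in Igfbpl1 microglia (31.3 to 43.1). In monocytes or macrophages Il17ra stood at 70.0 CPM with PBS and 22.7 CPM with Igfbpl1. In both classes Il17ra fell below the mean of 50 CPM needed for a call between the libraries. Il17rc, its partner, had 0 UMIs in microglia, monocytes or macrophages and T17-like cells of the Igfbpl1 library. Of 5 genes known to respond to interleukin-17 that were measured in microglia, Ccl2, Ccl7 and Cxcl2 were higher by at least 1.5-fold (3.80, 1.82 and 1.82-fold) and 0 lower, where 4.08% of 3334 genes were higher. Ccl7, at 36.4 CPM with PBS and 66.3 CPM with Igfbpl1, reached the mean of 50 CPM only through the Igfbpl1 library. Cxcl1, of the same list, was below that limit, at 4.72 CPM with PBS and 0 with Igfbpl1. In monocytes or macrophages 4 of 4 measured genes of this list were lower, where 39.3% of all genes were.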

How the data were processed

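Both deposited tables hold raw UMI counts, genes by cells, and the submitters' processing notes name Cell Ranger 3.1 and the mm10 build. How genes and cells were filtered was not given in the sources used here. Members and lists were all chosen with earlier results of these data known. Cells took the class, of 15 marker sets, with the largest share of its markers detected, at least 3, with ties unresolved. The share was of the whole set, also of markers that a table does not list. Of 183 markers 146 are listed for PBS and 176 for Igfbpl1. PBS lists 9 of 14 NK cell markers and 8 of 12 migratory dendritic cell markers, so these classes were harder to reach there. T17-like T cells were gated as the report describes. UMIs were summed per class and given as CPM with exact intervals (scipy 1.17.1). A gene was measured between libraries at a mean of 50 CPM and 20 UMIs, and within the T cells at 20 UMIs, and ratios for calls had 10 CPM added. A count of 0 is limited at 3 counts. Scrublet called 6 and 62 doublets, which were kept. Clusters used 2000 variable genes, 30 components and 15 neighbours at resolution 0.8 (scanpy 1.11.5, igraph 0.11.9), without the members. The lowest depth was 1001 UMIs, so thinning to 1000 UMIs dropped no cell. Named were the members in every class, at most 4 genes per list by CPM and 4 per direction by ratio, and the 5 genes of highest correlation at 0.3 or more. Other names were chosen after their values were seen. The ratio calls were tested on simulated counts, in which some unchanged genes were also called between T17-like and other T cells, so that part of those calls can be counting noise. Figures used matplotlib 3.10.9. Gene positions come from GENCODE M21. One gene of the lists is counted in them but not reported here by name or value.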

Additional observations from a re-analysis of the deposited data

Results flagged for a closer look

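Tmem176a and Tmem176b were flagged because their ratios between the libraries lay on opposite sides of 1 in 2 classes. In microglia the Igfbpl1 over PBS ratios were 1.26 and 1.10, and in monocytes or macrophages 0.674 and 0.609. The difference between the classes was not tested, since each group had 1 library. Across the monocyte or macrophage class the median log2 ratio of all genes was -0.35, against -0.12 in microglia.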

How the results depend on the processing

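No paired analysis was possible because each group is 1 library, and for the same reason no replicate could be left out. A change of sign was counted as reversed only for a library ratio past 1.5-fold, here that of Tmem176b in monocytes or macrophages. Of 227 values under 17 alternative settings 1 reversed by that rule, which most of the values could not meet. With classes from clusters the Il17a level in T17-like cells was 1360 CPM, and with cells thinned to 1000 UMIs, 2231 CPM, against 1783. The T17-like share of T cells, 24.8%, was 15.5% with thinning and 33.0% without the gamma-chain requirement, also on programme genes listed in both libraries. Among T cells 130 genes rather than 295 were at least 2-fold higher in T17-like cells with 50 CPM added, while all 6 members stayed past 2-fold under each setting run. The log2 ratio of Tmem176a in microglia, 0.33, was 0.47 with clusters, 0.59 thinned and 0.22 in Y-only cells (a Y-linked UMI and no Xist). In monocytes or macrophages, -0.56, it was -0.98 thinned, -0.21 scaled by the median ratio and 0.025 in Y-only cells, a change of sign that was not counted as reversed. Tmem176b in microglia, 0.14, was 0.26 with clusters, 0.33 thinned, 0.028 in cells of 2000 UMIs or more, 0.25 scaled and 0.33 in Xist-only cells. In monocytes or macrophages, -0.70, it was -0.36 scaled, -0.98 in Xist-only cells, -0.11 in Y-only cells and, reversed, 0.035 in the cluster common to both libraries. The settings on Xist, Y-linked genes, the common cluster and jointly listed genes were chosen after seeing the data. The causes were not tested. Of 140 levels by class under these settings 27 moved outside their counting interval.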
